A study of Mus musculus with 10 samples.

Results

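Cortical neurons that had been under a proteasome inhibitor for 48 h were compared with neurons that had been under it for 24 h. The comparison took 6 of the 10 arrays of the series by their titles, 3 of lactacystin at 48 h and 3 of lactacystin at 24 h, and covered every probe set shared by the 2 array designs used. The cultures were primary cortical neurons of foetal Swiss albino mice (gestation day 15 to 16). Lactacystin was added on day 5 in vitro at 1 µM in a serum-free medium, from a stock in DMSO, and each labelling reaction took 7 µg of total RNA. The other 4 arrays were controls of the same cultures, 2 at 24 h and 2 at 48 h, and served as the background of time in culture. Nothing in the labels tells if solvent was given to the controls or if each replicate was its own culture. The p-values therefore rest on the spread among these arrays, part or all of which may be technical.

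The proteasome is the complex that degrades proteins tagged with ubiquitin. Its barrel, the 20S core, holds the proteolytic sites, and the 19S regulator on its ends recognises and unfolds substrates. Lactacystin modifies the catalytic subunits of the core. When degradation is blocked, cells are known to raise transcription of the proteasome genes themselves, of heat shock chaperones that hold unfolded proteins, of antioxidant genes driven by NRF2 and of the ATF4 programme for amino acid supply. Cortical cultures of this kind also hold some glia beside the neurons.

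Each array gave 1 MAS5 signal per probe set, scaled here to a common trimmed mean. Changes are differences in log2(signal + 32) at 48 h minus 24 h, adjusted for array design, and are given with their standard error (SE). Adjusted p-values are from limma with Benjamini-Hochberg adjustment over 6984 probe sets, and a gene is said to have risen or fallen only where the adjusted p was under 0.05. A signal set is written in the order of replicates 1 to 3. Replicate 1 at 24 h and replicate 3 at 48 h were on the U74A design and the other 4 lactacystin arrays on its revision U74Av2. The first principal component (45.9% of the variance) separated the designs, and the third (12.3%) separated the lactacystin times. Replicates 2 and 3 at 24 h were the closest pair of arrays in any group, with an SD of 0.248 for their log2 differences, against 0.348 for the like pair at 48 h.

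Of the 6984 probe sets, 808 differed between the times under lactacystin (11.6%), 432 higher at 48 h (6.19%) and 376 lower (5.38%). At least 2-fold changes were 53 in each direction, and 805 of the 808 had the same sign within U74A and within U74Av2. All arrays of 48 h were above all of 24 h for 11.8% of the 6984 probe sets, and below them for 9.55%. The balance of directions moved with the scaling. When the medians of the arrays were set equal in place of their trimmed means, 753 probe sets passed, 224 higher and 529 lower, and with quantile normalization 790 passed, 375 higher and 415 lower. The number of calls also leaned on single arrays. It was 329 without replicate 3 and 347 without replicate 2 of 24 h, and 519 without replicate 1 and 529 without replicate 3 of 48 h.

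In the controls no probe set (0%) passed between 24 h and 48 h with limma, and 391 had an unadjusted p under 0.05, against 1865 under lactacystin. The controls had 2 arrays per time and lactacystin 3. A fitted change of at least 2-fold in size was found for 21 probe sets in the controls and for 110 under lactacystin. When the change in the controls was subtracted from that under lactacystin and the difference itself was tested, 86 probe sets passed (1.23%), 57 more negative (0.816%) and 29 more positive (0.415%) under lactacystin, and 82 of the 86 were also among the 808. This count rested on few control arrays: it was 5 without replicate 1 and 31 without replicate 2 of the 48 h controls, 28 and 16 without replicate 1 or replicate 2 of the 24 h controls, and 186, 39 and 36 without replicate 1, 2 or 3 of 24 h of lactacystin. The single differences from the controls given below carry the same limit.

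**Figure D1:**
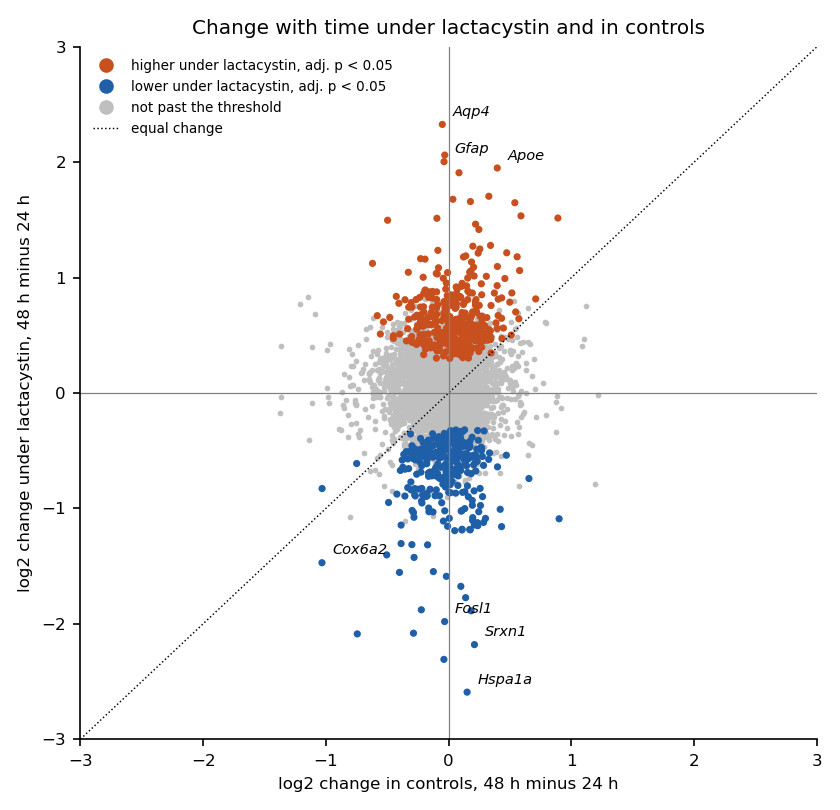
Log2 change from 24 h to 48 h in the controls (horizontal) and under lactacystin (vertical), 1 point per gene, with genes past the threshold under lactacystin in colour and the dotted line at equal change. The coloured points stretch along the vertical axis, from Hspa1a at -2.59 to Aqp4 at 2.33, and Cox6a2 lies at -1.03 in the controls and -1.47 under lactacystin.

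A literal switch was rare. Under a description with no test, a probe set counted as off at a time when its signal was under 100 on all 3 arrays and as on when it was at least 200 on all 3. Fosl1, a Fos-family subunit of the transcription factor AP-1, was the 1 probe set that went off. Its signals were 355.6, 315.6 and 322.3 at 24 h and 33.0, 76.6 and 77.9 at 48 h, and the 4 controls lay between 10.6 and 14.6. The 48 h arrays were thus far below those of 24 h and still above every control. Aqp4, the water channel of astrocyte endfeet, went on, as did 1 probe set without a gene symbol. With an off limit of 50 none met the description.

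**Figure D2:**
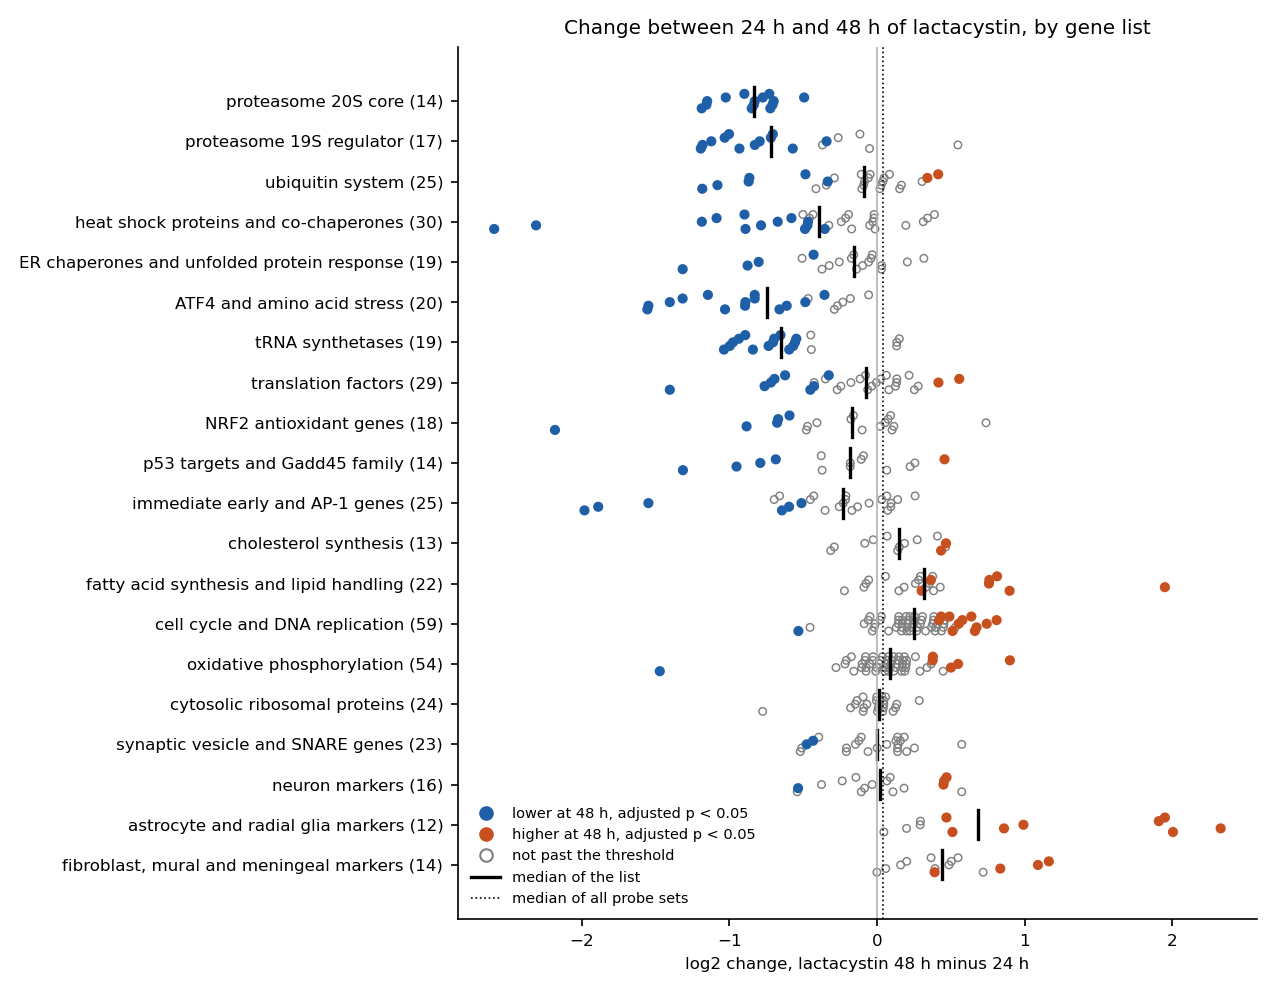
Log2 change from 24 h to 48 h of lactacystin for the tested members of 20 gene lists, with the number of members in brackets, filled points past the threshold and a bar at each list's median. Points of the proteasome, ATF4 and tRNA synthetase lists lie mostly to the left of the median of all probe sets (0.04), and those of the astrocyte markers to its right.

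The proteasome genes fell together. All 14 genes of the 20S core were lower at 48 h than at 24 h of lactacystin, with a median change of -0.83 log2, and 12 of 17 tested genes of the 19S regulator fell and none rose, with a median of -0.72. Over all genes 5.58% fell. Within U74A the medians were -1.08 and -0.81, and within U74Av2 -0.66 and -0.67. In the controls the same lists had medians of 0.00 and 0.07 between the times, with no gene past the threshold.

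Psmb3, a beta-ring subunit of the core, had signals of 7716, 7917 and 8049 at 24 h and of 3714, 4500 and 2454 at 48 h, against 2291 to 3328 in the controls. No array of one time reached those of the other, and at 48 h 2 of the 3 arrays were still above the highest control. Psmb3 fell by 1.19 ± 0.13 (adjusted p = 0.000293). Psma1, of the outer alpha ring, went from 1587, 1771 and 1708 to 793.8, 780.6 and 652.9, on both sides of the range of the controls (673.1 to 761.7). Psma1 fell by 1.16 ± 0.10 and Psmb2 by 1.15 ± 0.10 (adjusted p = 7.39e-05 and 6.99e-05). Psmb5, the subunit whose active site lactacystin is known to modify, fell by 0.73 ± 0.11 (adjusted p = 0.00168), and the other catalytic subunits Psmb6 and Psmb7 by 0.90 ± 0.12 and 0.77 ± 0.11. Psma6 had the smallest fall (-0.49 ± 0.12, adjusted p = 0.0277), and its call was lost without replicate 1 (adjusted p = 0.074) or replicate 2 (0.0629) of 24 h and without replicate 1 (0.0552) or replicate 3 (0.109) of 48 h.

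In the 19S regulator the ATPase subunit Psmc2 went from 4618, 5622 and 5544 to 2415, 2422 and 2062, within or close to the control range of 2204 to 2551. The change was -1.18 ± 0.08 (adjusted p = 1.86e-05). Psmd12, a lid subunit, fell by 1.19 ± 0.10, the ubiquitin receptor Psmd4 by 1.12 ± 0.13 and the deubiquitinase Psmd14 by 0.93 ± 0.10. The falls of Psmc2, Psmd12, Psmd4 and Psmd14 each differed from the change in the controls (adjusted p = 0.00186, 0.00808, 0.01 and 0.00808 for the difference), as did 7 of the 14 core genes and 9 of the 17 regulator genes in all, where 1.23% of probe sets did. The call of Psmd5 was lost without any 1 of the 10 arrays, with adjusted p from 0.0549 to 0.207, and 5 regulator genes did not pass. Psmd10, the assembly chaperone also called gankyrin, stood at 0.55 ± 0.18 (adjusted p = 0.0664, and 0.042 without replicate 2 of 48 h), Sem1 at -0.05 ± 0.10 and Psmd9 at -0.12 ± 0.13. Against the controls of the same time the median of the core was 0.89 at 24 h, with 14 of 14 genes higher, and 0.10 at 48 h, with 0 of 14 past the threshold. Over all probe sets 8.2% were higher than in the controls at 24 h and 6.77% at 48 h (14.9% and 10.3% in either direction). For the regulator the medians were 0.78 with 13 of 17 past the threshold and -0.01 with 0 of 17. These differences use the same lactacystin arrays as the change with time.

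Factors that bring substrates to the proteasome followed the same course in part. Of 25 genes of the ubiquitin system 6 fell and 2 rose, where 5.58% of all genes fell and 6.61% rose. The median was -0.08, and the rises were 0 or 1 without any 1 array. Sqstm1 (p62), which gathers ubiquitinated proteins and links them to autophagy, went from 4828, 5600 and 5827 to 2318, 3406 and 1666, against 1446 to 2088 in the controls, a change of -1.18 ± 0.15 (adjusted p = 0.000494). The times did not overlap. Vcp, the segregase that pulls ubiquitinated proteins out of complexes, and its cofactor Ufd1 fell by 0.86 ± 0.11 and 1.08 ± 0.17, and Usp14, a deubiquitinase bound to the proteasome, by 0.87 ± 0.15 (adjusted p = 0.000645, 0.00231 and 0.00436).

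**Figure D3:**
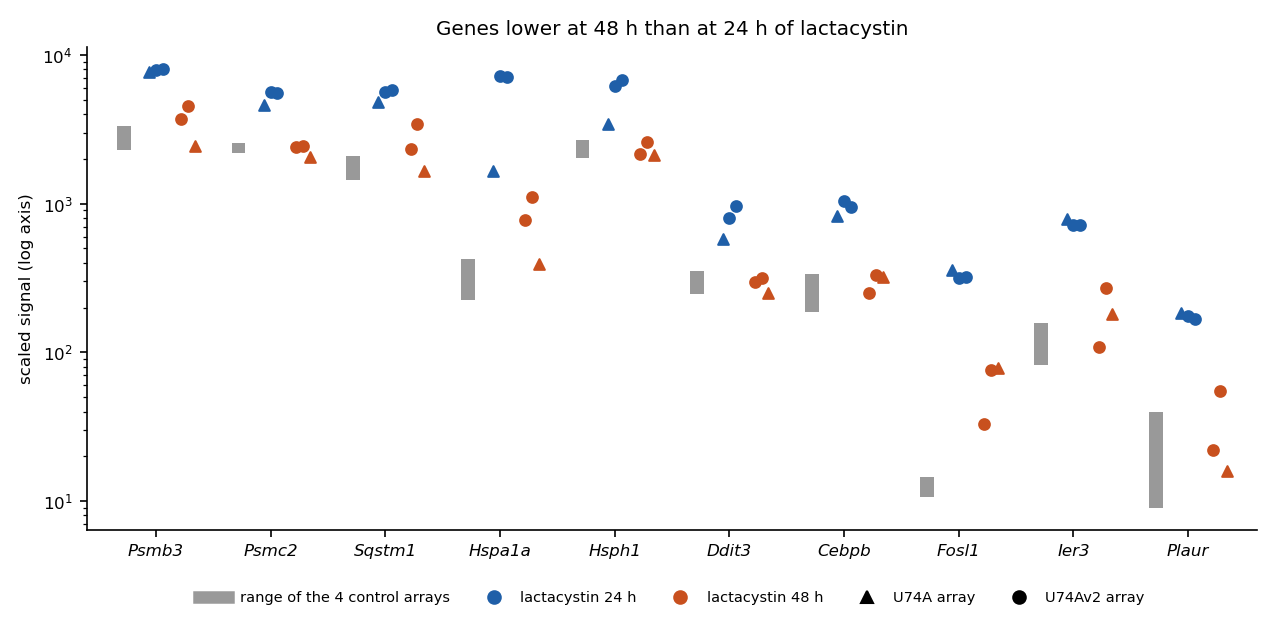
Scaled signal on a log axis of 10 genes that were lower at 48 h, with 1 point per lactacystin array (triangles for U74A, circles for U74Av2) and a grey bar for the range of the 4 controls. For each gene the 3 arrays of 48 h lie below the 3 of 24 h, and for Psmc2, Hsph1 and Ddit3 they lie in or beside the control range.

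Part of the heat shock genes fell, a few of them from a large excess. Of 30 heat shock proteins and co-chaperones 13 fell and none rose, where 5.58% of all genes fell and 6.61% rose. Their median was -0.39. For 6 of the 30 the change differed from that in the controls, where 1.23% of probe sets did. Hspa1a, the inducible cytosolic Hsp70, had signals of 1652, 7186 and 7057 at 24 h and of 773.1, 1107 and 395.7 at 48 h, with controls at 226.6 to 423.7. Every 24 h array was above every 48 h array, and the lowest of the 24 h arrays was the U74A array. Hspa1a fell by 2.59 ± 0.27 (adjusted p = 0.000179), with changes of -1.98 within U74A and -2.90 within U74Av2. Hspa1b fell by 2.31 ± 0.35 (adjusted p = 0.00178), but Hspa1a and Hspa1b are almost the same in sequence, and which of the pair a probe set reads is uncertain.

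Hsph1, an Hsp110 exchange factor for Hsp70, went from 3452, 6205 and 6769 to 2165, 2601 and 2135, against 2025 to 2694 in the controls, a change of -1.19 ± 0.18 (adjusted p = 0.00175). At 48 h all 3 of its arrays were in the range of the controls. Dnajb2, a co-chaperone that binds ubiquitin chains, fell by 1.09 ± 0.13, the mitochondrial chaperones Hspa9 and Hspe1 by 0.89 ± 0.09 and 0.78 ± 0.09, and Hsp90aa1 by 0.47 ± 0.07 (adjusted p = 0.000364, 0.000182, 0.000273 and 0.00244). Serpinh1, the collagen chaperone, fell by 0.90 ± 0.17 (adjusted p = 0.00586) and yet kept signals of 1297, 2067 and 1515, all above the controls (395.0 to 527.4). Bag3, a co-chaperone of selective autophagy, was at -0.46 ± 0.27 and not past the threshold (adjusted p = 0.304, and 0.0299 without replicate 2 of 48 h). Set against controls of the same time, the 30 genes had a median of 0.37 at 24 h (12 higher) and of -0.06 at 48 h (2 higher). Of all probe sets 8.2% were higher at 24 h and 6.77% at 48 h.

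Hspe1 and Hspd1, whose products form the mitochondrial chaperonin, lie back to back and share 1 promoter. It is shown because it holds the binding letters of the heat shock factors. The windows of 1 chromosome were left out of the choice for display, so other called members may also hold the letters. The letters searched were GAA, TTC and GAA with any 2 bases between the blocks, on both strands of the 250 bases before the start. They are in 139 of 27025 genes (0.51%) and in 3 of the 23 heat shock genes with a RefSeq promoter window (13.04%). Hspe1 and Hspd1 are 2 of these 3, and their matches are the same bases read from each strand. The count of 3 thus holds 1 stretch of bases under 2 genes. The window is chr1:55087998-55088147 on the plus strand of GRCm38.p6, the 150 bases before the start of Hspe1, from RefSeq, with the letters of 2 overlapping matches in capitals. A match is a description and not a binding site.
Hspe1: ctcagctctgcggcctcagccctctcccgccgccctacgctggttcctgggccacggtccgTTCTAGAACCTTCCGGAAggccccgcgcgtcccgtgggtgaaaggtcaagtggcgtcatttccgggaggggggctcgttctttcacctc
Hspe1 had signals of 6423, 6413 and 6514 at 24 h and of 3657, 4166 and 3404 at 48 h. Those of Hspd1 were 8479, 8306 and 7717, then 4759, 7163 and 5761. Neither gene had an overlap between the times, and Hspd1 fell by 0.49 ± 0.12 (adjusted p = 0.0288). The call of Hspd1 was lost without replicate 1, 2 or 3 of 24 h (adjusted p = 0.0733, 0.0999 and 0.0651) and without replicate 1 or 3 of 48 h (0.0892 and 0.0796).

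The chaperones and stress sensors of the endoplasmic reticulum (ER) were another list, which shares Ddit3 with the ATF4 list below. Of 19 genes 4 fell and none rose, where 5.58% of all genes fell and 6.61% rose, with a median of -0.16. Ddit3 (CHOP), a transcription factor of prolonged ER and amino acid stress, went from 576.2, 797.9 and 960.2 to 298.6, 316.5 and 249.7, with controls at 247.5 to 351.7. Its change of -1.32 ± 0.14 (adjusted p = 0.0002) brought all 3 arrays into the range of the controls. Hspa5 (BiP), the main Hsp70 of the ER, fell by 0.80 ± 0.09 and Herpud1, an ER-associated degradation factor, by 0.88 ± 0.16 (adjusted p = 0.000273 and 0.00586). Of 7 subunits of the TRiC chaperonin and prefoldin, which fold actin and tubulin, 3 fell, with Cct3 at -0.72 ± 0.08 (adjusted p = 0.000377). The TRiC count was 1 without replicate 2 or without replicate 3 of 24 h, and 2 without any 1 of the 48 h arrays.

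ATF4 is a transcription factor that is translated when eIF2alpha is phosphorylated and drives amino acid synthesis, uptake and tRNA charging. Of 20 genes of this list 14 fell and none rose, where 5.58% of all genes fell and 6.61% rose. The median was -0.74 (-0.61 within U74A and -0.85 within U74Av2). The controls had a median of -0.29 between the times, also below 0, with no gene past the threshold. For 2 of the 20 genes, Cebpb and Ddit3, the change differed from that in the controls, where 1.23% of probe sets did. Leaving out 1 array gave 10 to 14 falls. Set against controls of the same time, the list had a median of 0.14 at 24 h, with 6 genes higher and none lower. At 48 h the median was -0.01, with 2 higher and 3 lower. Of all probe sets 8.2% were higher and 6.66% lower at 24 h, and 6.77% and 3.57% at 48 h.

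Atf4 itself had signals of 2011, 4194 and 3956 at 24 h and of 1908, 1560 and 1281 at 48 h, against 2224 to 4541 in the controls. The times did not overlap, and all 3 arrays of 48 h were below the lowest control. Atf4 fell by 1.03 ± 0.13 (adjusted p = 0.000609). Cebpb, a C/EBP transcription factor of stress and cytokine responses, went from 831.6, 1049 and 952.1 to 251.9, 330.0 and 320.5, a change of -1.56 ± 0.15 (adjusted p = 0.000127) into the control range of 186.5 to 337.7. Atf3, a stress-induced repressor, fell by 1.55 ± 0.25 and Eif4ebp1, which restrains cap-dependent translation, by 1.40 ± 0.14 (adjusted p = 0.00269 and 0.000161). Atf3 stayed above the controls at 48 h, with 292.9, 262.1 and 218.3 against 95.0 to 140.2.

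Enzymes and transporters of the programme were also among the falls. Asns, asparagine synthetase, fell by 0.89 ± 0.09, Mthfd2, a mitochondrial folate enzyme, by 0.89 ± 0.15, and Slc7a5 and Slc3a2, the chains of a transporter of large neutral amino acids, by 1.15 ± 0.17 and 0.83 ± 0.10 (adjusted p = 0.000181, 0.00309, 0.00137 and 0.000364). The arrays of the times overlapped for Mthfd2 and Slc7a5, whose U74A arrays were low at both times, and did not for Asns and Slc3a2. Atf5 fell by 0.83 ± 0.17 (adjusted p = 0.00878), and in the controls its change was -1.03. Slc7a3, a transporter of cationic amino acids outside this list, fell by 2.09 ± 0.12 (adjusted p = 7.35e-06). Its signals were 748.7, 1127 and 1210 at 24 h, 278.5, 228.2 and 148.8 at 48 h and 273.0 to 885.9 in the controls, so that 2 of the 3 arrays of 48 h were below the lowest control. The controls changed by -0.74 in Slc7a3, and the difference between the changes was -1.34 ± 0.19 (adjusted p = 0.00808).

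The tRNA synthetases, which load amino acids onto tRNA, were tested as a list of their own. Of 19 genes 14 fell and none rose, where 5.58% of all genes fell and 6.61% rose. The median was -0.65 (-0.47 within U74A and -0.77 within U74Av2), and leaving out 1 array gave 11 to 15 falls. Nars, for asparagine, went from 1096, 1463 and 1478 to 649.2, 692.9 and 566.1, against 784.9 to 1095 in the controls. All 3 arrays of 48 h were below every control. Nars fell by 1.04 ± 0.10, Mars1, for methionine, by 1.00 ± 0.11, Rars, for arginine, by 0.98 ± 0.12, and Aars, for alanine, by 0.93 ± 0.14 (adjusted p = 0.000148, 0.000352, 0.000436 and 0.0019). The arrays of Aars overlapped between the times. Rars was the 1 synthetase whose fall differed from the control change (-1.24, adjusted p = 0.01). Set against controls of the same time, the synthetases had a median of 0.29 at 24 h, with 3 higher. At 48 h the median was -0.17, with 3 lower. Of all probe sets 8.2% were higher at 24 h and 3.57% lower at 48 h.

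The composite letters read by ATF4 with C/EBP proteins, TGATGNAA on either strand, are in 1056 of 27025 genes (3.91%) within 250 bases before the start. They are in 3 of 17 matched genes of the ATF4 list (17.65%) and 3 of 12 matched synthetases (25.0%). The 150 bases before the start of 5 of these genes, all lower at 48 h, are shown to let the position of the letters be compared, from RefSeq on GRCm38.p6 and in the direction of transcription, with the match in capitals. The windows are chr1:191183334-191183483 on the minus strand for Atf3, chr6:7693210-7693359 on the minus strand for Asns, chr8:111033692-111033841 on the plus strand for Aars, chr15:11399659-11399808 on the minus strand for Tars and chr6:55037851-55038000 on the plus strand for Gars.
Atf3: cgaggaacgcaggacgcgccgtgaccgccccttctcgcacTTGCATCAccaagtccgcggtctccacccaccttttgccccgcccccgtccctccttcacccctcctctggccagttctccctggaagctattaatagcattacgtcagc
Asns: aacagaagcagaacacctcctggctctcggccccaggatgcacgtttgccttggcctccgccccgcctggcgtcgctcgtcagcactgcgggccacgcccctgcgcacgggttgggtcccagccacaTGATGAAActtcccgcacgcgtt
Aars: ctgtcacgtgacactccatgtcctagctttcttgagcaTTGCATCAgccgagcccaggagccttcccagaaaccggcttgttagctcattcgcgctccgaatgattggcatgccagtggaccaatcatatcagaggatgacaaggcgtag
Tars: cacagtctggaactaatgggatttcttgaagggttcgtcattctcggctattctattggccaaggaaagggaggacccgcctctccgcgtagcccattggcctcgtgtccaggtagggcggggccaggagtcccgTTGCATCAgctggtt
Gars: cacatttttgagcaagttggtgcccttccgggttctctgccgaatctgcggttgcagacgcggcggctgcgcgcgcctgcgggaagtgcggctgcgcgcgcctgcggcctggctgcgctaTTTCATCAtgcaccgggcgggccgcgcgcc
The match begins 110 bases before the start in Atf3, 112 in Aars, 30 in Gars, 23 in Asns and 15 in Tars. Tars fell by 0.84 ± 0.12 (adjusted p = 0.00111). Gars fell by 0.57 ± 0.12 (adjusted p = 0.0102), with overlapping arrays, and lost its call without replicate 3 of 24 h (adjusted p = 0.0599). For the other 9 matched synthetases these letters are not in the 250 bases searched.

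Of 29 translation factors 8 fell and 2 rose, where 5.58% of all genes fell and 6.61% rose, with a median of -0.08. Eif3d, a cap-binding subunit of eIF3, fell by 0.76 ± 0.09 and Eif6, which keeps ribosomal subunits apart, by 0.72 ± 0.12 (adjusted p = 0.000352 and 0.00257). Without replicate 2 or replicate 3 of 24 h the falls were 3, without replicate 3 of 48 h 4, and without replicate 1 of either time 5. The rises were 0 without replicate 2 of 24 h or replicate 3 of 48 h. None of 24 genes of cytosolic ribosomal proteins passed the threshold in either direction, and their median was 0.01.

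Antioxidant genes were next. Of 18 NRF2 genes 5 fell and none rose, where 5.58% of all genes fell and 6.61% rose. The median was -0.17, at -0.59 within U74A and -0.06 within U74Av2. Srxn1, which repairs oxidised peroxiredoxins, went from 1520, 1035 and 961.8 to 142.3, 604.5 and 127.2, with controls at 34.7 to 105.2. The arrays did not overlap, and replicate 2 of 48 h stood well above the other two. Srxn1 fell by 2.18 ± 0.46 (adjusted p = 0.0107). Txnrd1, thioredoxin reductase, fell by 0.67 ± 0.11, Mafg, a partner of NRF2 on DNA, by 0.88 ± 0.14, and Sod1 by 0.59 ± 0.09 (adjusted p = 0.00354, 0.00248 and 0.00242). Of these, Sod1 had overlapping arrays. Nqo1, a quinone reductase, was at 0.12 ± 0.29 (adjusted p = 0.838), with arrays of both times above the controls. Set against controls of the same time, the NRF2 list had 11 genes higher at 24 h and 4 at 48 h, with medians of 0.84 and 0.24. The shares higher over all probe sets were 8.2% and 6.77%.

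Of 11 glutathione S-transferases, which conjugate glutathione to toxic molecules, 4 rose and none fell, where 6.61% of all genes rose and 5.58% fell. Gstm1 rose by 0.92 ± 0.14 (adjusted p = 0.00157), from 4918, 3189 and 3313 to 5783, 8183 and 7530 against 3806 to 6040 in the controls. These 11 genes had a median of -0.02, with -0.38 within U74A and 0.29 within U74Av2, and the count was 1 without replicate 2 or replicate 3 of 24 h or replicate 1 of 48 h, and 2 without replicate 2 or 3 of 48 h or without either 24 h control. Mt3, the metallothionein of brain, rose by 0.70 ± 0.12 (adjusted p = 0.00356), from 6821, 6623 and 7167 to 12490, 12340 and 9014.

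Several early and stress-induced genes had large falls. Of 25 immediate early and AP-1 genes 6 fell and none rose, where 5.58% of all genes fell and 6.61% rose. Ier3, an early response gene linked to survival, went from 786.2, 717.2 and 717.8 to 108.5, 269.0 and 182.2, against 82.4 to 156.6 in the controls, and Ier3 fell by 1.89 ± 0.24 (adjusted p = 0.000514). Fosl1 fell by 1.98 ± 0.21 (adjusted p = 0.000217), and for Ier3 and Fosl1 the change differed from that in the controls (adjusted p = 0.0225 and 0.018). The count was 3 without replicate 2 or replicate 3 of 24 h.

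Among 14 genes of the p53 and Gadd45 list 4 fell and 1 rose, where 5.58% of all genes fell and 6.61% rose. The median was -0.18. The rise was lost without replicate 2 or 3 of 24 h or replicate 2 of 48 h. Gadd45a, a DNA damage and stress sensor, went from 422.9, 634.5 and 526.8 to 173.0, 233.7 and 170.2, a change of -1.31 ± 0.17 (adjusted p = 0.000544) that left it above the controls (83.0 to 120.9). Mdm2, the ubiquitin ligase of p53, fell by 0.95 ± 0.12 and Cdkn1a (p21), a cell cycle inhibitor, by 0.79 ± 0.13 (adjusted p = 0.000657 and 0.00269). Both were also above every control on all 3 arrays of 48 h. Of the 14 genes 8 were higher than in the controls of the same time at 24 h and 5 at 48 h. The shares over all probe sets were 8.2% and 6.77%.

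Further large falls were in genes of varied function. Plaur, the urokinase receptor, fell from 184.9, 176.7 and 166.7 to 22.0, 54.7 and 16.0 (change of -1.77 ± 0.26, adjusted p = 0.0016), into the low range of the controls (9.0 to 39.6) or just above it. Tnc, the matrix protein tenascin C, fell by 1.43 ± 0.17 and Hmga2, a chromatin protein of immature cells, by 1.88 ± 0.26 (adjusted p = 0.000473 and 0.0011). The arrays of Tnc overlapped, with 1285 at 24 h on U74A and 1547 at 48 h on U74Av2. Cyb5r1, a cytochrome b5 reductase, fell by 2.08 ± 0.16 (adjusted p = 2.09e-05), from 988.6, 1864 and 1751 to 407.6, 416.0 and 199.1. Hk2, the inducible hexokinase, fell by 1.16 ± 0.16 (adjusted p = 0.0011) to 102.6, 120.1 and 61.1, against 22.4 to 93.0 in the controls. Ifi202b, an interferon-inducible protein, fell by 1.68 ± 0.28 (adjusted p = 0.0029) and stayed above the controls.

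Genes of cell death were covered by a pair of lists. Over all genes 5.58% fell and 6.61% rose. Of 11 genes of the BCL2 family 2 fell (1 without replicate 2 or 3 of either time), and of 16 caspases, death receptors and apoptosome genes none passed in either direction, with medians of -0.03 and 0.10. Bid, the proapoptotic link from death receptors to mitochondria, went from 397.9, 408.4 and 360.4 to 177.7, 183.7 and 164.4. All 3 arrays of 48 h were below the lowest control (201.5), and Bid fell by 1.02 ± 0.14 (adjusted p = 0.000955).

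**Figure D4:**
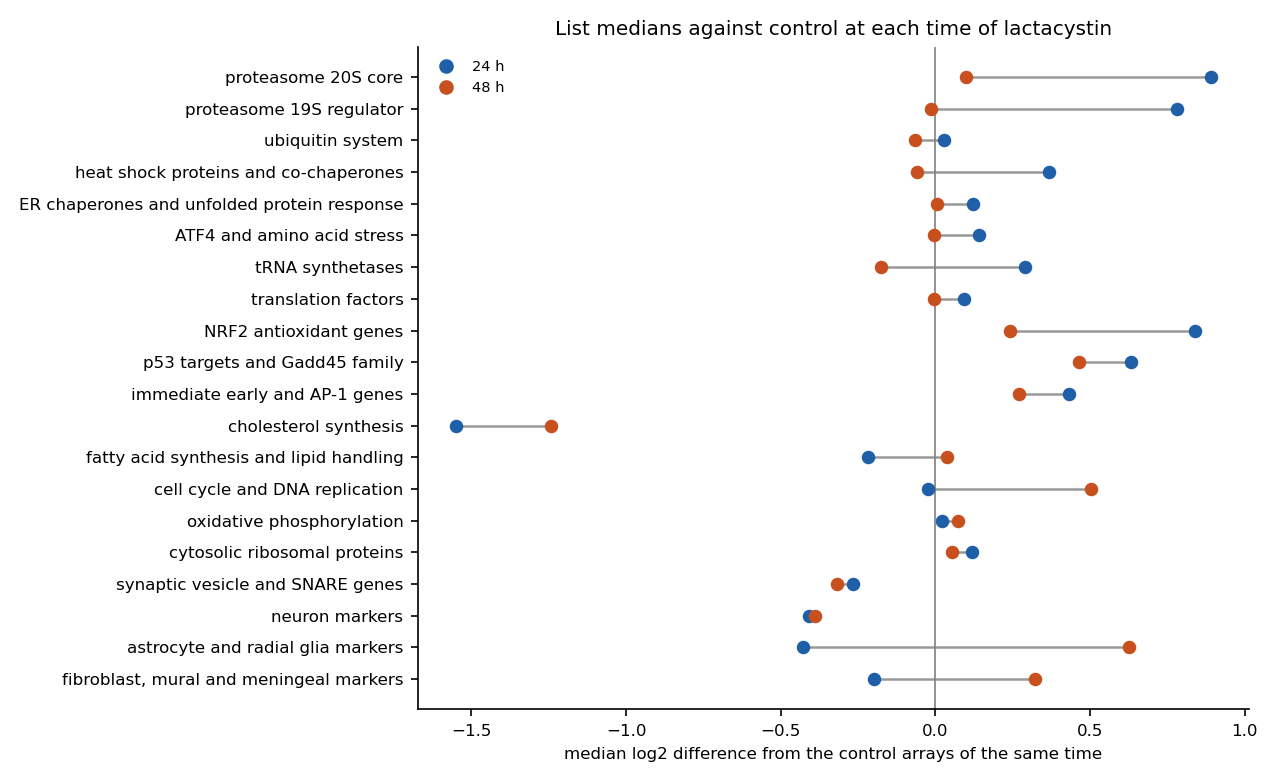
Median log2 difference from the controls of the same time for 20 gene lists at 24 h (blue) and at 48 h (orange) of lactacystin. The proteasome lists stand at 0.89 and 0.78 at 24 h and near 0 at 48 h, cholesterol synthesis stays below -1.2 at both times, and the astrocyte markers go from -0.43 to 0.63.

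Astrocytes are the glia that take up glutamate and supply lipids. Among 12 tested markers of astrocytes and radial glia there were 8 rises and no fall, with a median of 0.69 (0.48 within U74A and 0.64 within U74Av2), where 6.61% of all genes rose. Leaving out 1 array gave 5 to 8 rises, with 5 without replicate 3 of 24 h. The summed signal of the list was 15210 to 23830 on the 24 h arrays and 27320 to 34220 on the 48 h arrays. In the controls it was 18250 to 29000. Apoe, whose signals are given below, made up much of the sum at 48 h, and without Apoe the ranges of the times overlap. The markers S100b and Gjb6 were under the filter on low signals. Of 11 tested genes on a list of reactive astrocyte genes 1 rose and 0 fell, with a median of 0.09. The 1 that rose was Gfap, which is also among the 12 markers. In bulk RNA a larger share of cells of a type and more RNA per cell cannot be told apart, and the same holds for fewer cells and less RNA.

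Aqp4 had signals of 84.4, 41.5 and 23.4 at 24 h and of 262.5, 320.2 and 548.1 at 48 h, with the controls at 215.9 to 370.7. The 24 h arrays were all below the controls, and the 48 h arrays in or above their range. Aqp4 rose by 2.33 ± 0.16 (adjusted p = 1.31e-05), from -1.89 against the controls at 24 h to 0.49 at 48 h. Gfap, the intermediate filament of astrocytes, went from 161.6, 188.0 and 208.3 to 862.8, 795.4 and 863.6, where the controls were at 264.0 to 333.7. The arrays of 24 h were below and those of 48 h above every control, and Gfap rose by 2.01 ± 0.13 (adjusted p = 1.31e-05).

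Apoe, the main lipid carrier made by astrocytes, rose by 1.95 ± 0.23 (adjusted p = 0.000388), by 1.06 within U74A and by 2.40 within U74Av2. Its signals were 5219, 2140 and 2036 at 24 h and 8939, 13810 and 10940 at 48 h, against 4825 to 8722 in the controls, so all 3 arrays of 48 h were above every control. Pla2g7, a phospholipase that inactivates platelet-activating factor, rose by 1.91 ± 0.19 (adjusted p = 0.000132). The difference from the control change was 2.38 ± 0.25 for Aqp4, 2.04 ± 0.21 for Gfap and 1.83 ± 0.29 for Pla2g7 (adjusted p = 0.00186, 0.00186 and 0.013), and 1.55 ± 0.36 for Apoe (adjusted p = 0.0667). Ntsr2, a neurotensin receptor of astrocytes, rose by 0.86 ± 0.15 (adjusted p = 0.00411). Glul, glutamine synthetase, rose by 0.99 ± 0.20 (adjusted p = 0.0101) and lost its call without replicate 3 of 24 h (adjusted p = 0.0538).

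**Figure D5:**
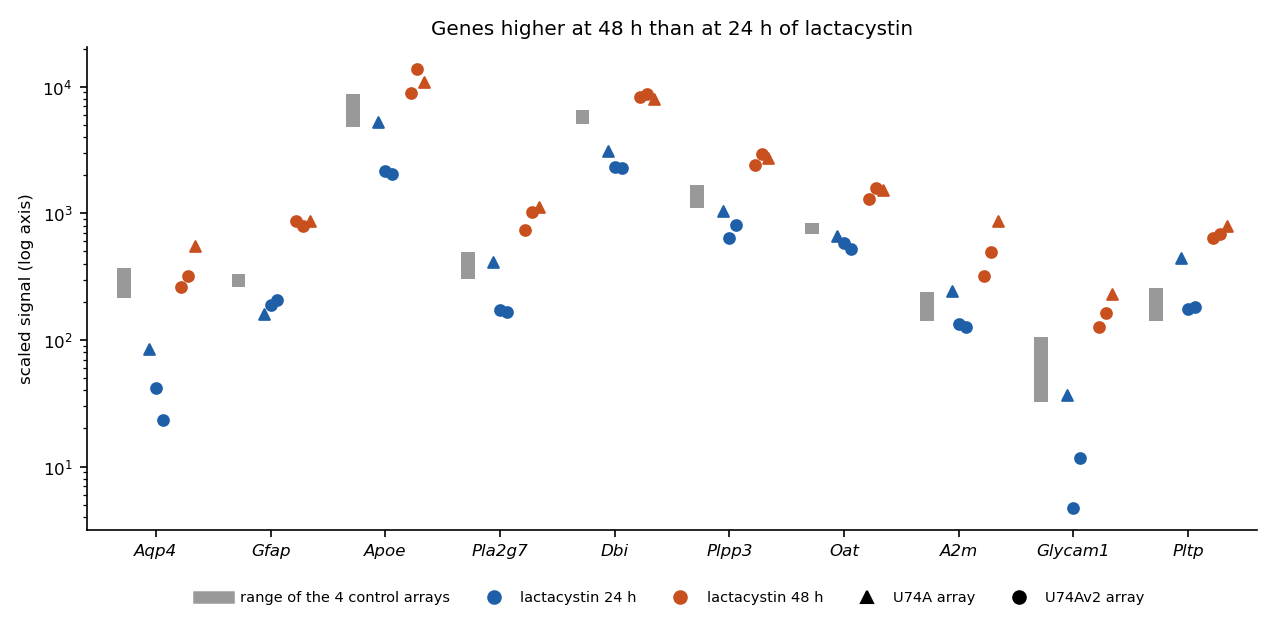
Scaled signal on a log axis of 10 genes that were higher at 48 h, drawn as for the genes that were lower. For each gene the 3 arrays of 48 h lie above the 3 of 24 h. For genes such as Gfap, Apoe, Dbi, Plpp3, Oat and Pltp they also lie above the grey range of the controls.

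The 20 largest rises also held genes of other functions. Dbi, the acyl-CoA binding protein, went from 3095, 2301 and 2275 to 8355, 8712 and 7933, against 5119 to 6547 in the controls. Its 24 h arrays were below and its 48 h arrays above every control, and Dbi rose by 1.71 ± 0.11 (adjusted p = 1.26e-05). Plpp3, a lipid phosphate phosphatase, rose by 1.68 ± 0.15 in the same pattern (adjusted p = 7.06e-05), from 1038, 638.7 and 810.6 to 2408, 2919 and 2732, against 1098 to 1678 in the controls. Pltp, a phospholipid transfer protein, rose by 1.42 ± 0.18 to 641.5, 690.5 and 791.1 (adjusted p = 0.00051), above the controls at 141.8 to 258.6. Oat, ornithine aminotransferase of mitochondria, rose by 1.27 ± 0.11 (adjusted p = 7.06e-05) and Pxmp2, a channel of the peroxisome membrane, by 1.24 ± 0.12 (adjusted p = 0.000132). A2m, the protease inhibitor alpha-2-macroglobulin, rose by 1.52 ± 0.17 (adjusted p = 0.00031), from 245.4, 132.9 and 126.4 to 322.2, 496.3 and 871.7. Glycam1, a secreted mucin, rose by 2.06 ± 0.19 (adjusted p = 0.000118) from low signals of 37.0, 4.7 and 11.7 to 127.3, 162.9 and 228.6.

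In the list of fatty acid synthesis and lipid handling 7 of 22 genes rose and none fell, where 6.61% of all genes rose and 5.58% fell. The median was 0.32. Leaving out 1 array gave 4 to 7 rises, with 4 without replicate 2 or replicate 3 of 24 h or replicate 2 of 48 h. Gpam, the first enzyme of glycerolipid synthesis, rose by 0.76 ± 0.10 and Acadm, of fatty acid oxidation, by 0.81 ± 0.13 (adjusted p = 0.000569 and 0.00276). Among glucose genes Pdk4, the kinase that turns pyruvate dehydrogenase off, rose by 1.18 ± 0.19 (adjusted p = 0.00244), from 123.8, 90.2 and 65.4 to 240.6, 257.6 and 241.7. The controls changed by 0.56 in Pdk4, and the difference was not past the threshold (adjusted p = 0.335). Cholesterol synthesis, which makes the sterols of membranes, stayed low. Its 13 genes had a median of 0.15 between the times and of -1.55 and -1.24 against the controls at 24 h and 48 h, with 12 and 10 genes lower, where 6.66% and 3.57% of all probe sets were lower. Of these genes 2 rose, and none without any 1 array of 24 h, replicate 2 or 3 of 48 h, or replicate 1 of the 48 h controls. Idi1, an isomerase of the mevalonate pathway, had signals of 378.6, 494.0 and 477.0, then 590.0, 671.2 and 632.6, far under the controls at 2124 to 3270. It rose by 0.47 ± 0.13 (adjusted p = 0.0354), a call lost without any 1 of 7 arrays, with adjusted p up to 0.136 without replicate 3 of 48 h.

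Some genes of dividing cells rose. Of 59 genes of the cell cycle and DNA replication 11 rose and 1 fell, where 6.61% of all genes rose and 5.58% fell. The median was 0.25 against -0.25 in the controls. At 48 h 24 of the 59 were above the controls past the threshold, against 2 at 24 h. Over all probe sets 6.77% were higher than in the controls at 48 h and 8.2% at 24 h. These counts against the controls were not repeated leaving out single arrays. Top2a, the topoisomerase of dividing cells, went from 280.0, 300.9 and 304.5 to 474.3, 488.0 and 591.6, with controls at 180.9 to 318.0. It rose by 0.74 ± 0.17 (adjusted p = 0.0164). The count of rises between the times was not stable. It was 0 without replicate 2 of 24 h or replicate 3 of 48 h and 2 without replicate 3 of 24 h. It was 4 without replicate 1 of 24 h and 7 without replicate 1 of 48 h. Top2a lost its call in turn without replicate 2 (adjusted p = 0.06) or replicate 3 (0.0585) of 24 h and without replicate 3 of 48 h (0.075). With equal medians across arrays 4 genes rose, and with quantile normalization 5.

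Markers of other cells were checked in the same way, beside the 6.61% of all genes that rose and the 5.58% that fell. Of 14 fibroblast, mural and meningeal markers 4 rose, with a median of 0.44 and a summed signal of 3665 to 4911 at 24 h and 4959 to 7040 at 48 h, and 1 rose without replicate 2 or replicate 3 of 24 h and 2 without replicate 1 of 48 h. Of 3 tested markers of the oligodendrocyte lineage 2 rose, with a median of 0.79. Sox10, a transcription factor of that lineage, rose by 0.79 ± 0.16 (adjusted p = 0.00894) and Pdgfra, a receptor of its progenitors, by 1.10 ± 0.31 (adjusted p = 0.044), and the call of Pdgfra was lost without any 1 control, replicate 2 or 3 of 24 h, or replicate 1 or 2 of 48 h, with adjusted p up to 0.17 without replicate 2 of 24 h. The other 7 of the 10 markers of that lineage on the arrays, Mog and Mag among them, were under the filter. Of 14 microglia markers, all with a change above 0 and with a median of 0.34, 1 rose (none without replicate 2 or 3 of either time or without either 48 h control, and 2 without either 24 h control), and 7 more, among them Aif1 and Itgam, were under the filter. None of 3 endothelial markers passed, and 9 of 12 were under the filter. The part of these cells in the rises above was not tested.

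The label of the cultures was checked on markers of neurons: all 16 on the arrays passed the filter on low signals, and 3 rose and 1 fell, where 6.61% of all genes rose and 5.58% fell, with a median of 0.02 between the times (1 rose without replicate 3 of 24 h, and none fell without replicate 2 or 3 of 24 h or replicate 1 or 3 of 48 h). Their median against the controls was -0.41 at 24 h and -0.39 at 48 h, and their summed signal was 23240 to 25790 at 24 h, 25930 to 35080 at 48 h and 34920 to 41150 in the controls. Dcx, a microtubule protein of young neurons, rose by 0.47 ± 0.09 (adjusted p = 0.00874), from 3902, 5144 and 4918 to 7109, 6182 and 6023, against 6700 to 8055 in the controls. Of 23 synaptic vesicle and SNARE genes 2 fell and none rose, and of 26 postsynaptic genes 2 rose and none fell. All of these synaptic calls were lost without replicate 2 or without replicate 3 of 24 h, the synaptic vesicle count was 1 without replicate 1 or 2 of 48 h, and the postsynaptic count was 0 without replicate 3 of 48 h.

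Sst, the peptide somatostatin of a class of inhibitory neurons, fell by 1.59 ± 0.24 (adjusted p = 0.00168), with changes of -0.61 within U74A and -2.08 within U74Av2. Its signals were 1750, 2975 and 2946 at 24 h, the last 2 in the range of the controls at 2677 to 3505, and 773.2, 590.9 and 1136 at 48 h, where all 3 arrays were below every control. Scg2, a secretogranin of dense-core vesicles, fell by 1.11 ± 0.19 and the neurotrophin Bdnf by 0.83 ± 0.17 (adjusted p = 0.00309 and 0.00857). The peptide Cck rose by 0.82 ± 0.12 (adjusted p = 0.00175), while the controls stood at 0.71, and the difference was 0.11 (adjusted p = 0.824). Tuba4a, an alpha tubulin, fell by 1.10 ± 0.12 (adjusted p = 0.000192) from 588.5, 432.8 and 463.4 to 192.9, 172.6 and 280.2. Id4, a helix-loop-helix inhibitor of differentiation, rose by 0.83 ± 0.10 (adjusted p = 0.000423), from 1117, 1029 and 1020 to 1890, 1937 and 1855, with every control between the 2 sets at 1347 to 1621.

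Of 54 genes of oxidative phosphorylation 5 rose (9.26%) and 1 fell (1.85%), with a median of 0.09, against 6.61% and 5.58% of all genes. Cox6a2, the muscle and heart form of a cytochrome oxidase subunit, fell by 1.47 ± 0.20 (adjusted p = 0.000955) from 283.3, 350.3 and 355.3 to 148.8, 88.0 and 69.1. The controls changed by -1.03, and the difference of -0.44 was not past the threshold (adjusted p = 0.535). Ndufa1, a subunit of complex I, rose by 0.90 ± 0.17 (adjusted p = 0.00659). Without replicate 2 or replicate 3 of 24 h 1 gene of the list rose, without replicate 1 of 48 h 2, without replicate 2 of 48 h 3, and without replicate 1 of 24 h 10.

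Some genes of calcium-binding proteins and lysosomes also moved. Of 15 annexins, S100 proteins and galectins 5 rose and 1 fell, where 6.61% of all genes rose and 5.58% fell. The median was 0.27 (-0.19 within U74A and 0.59 within U74Av2). S100a1 rose by 1.52 ± 0.19 (adjusted p = 0.000569) from 35.5, 3.0 and 1.8 to 62.6, 71.3 and 159.7, with a control change of 0.89. S100a6 rose by 1.28 ± 0.23 (adjusted p = 0.00414), with overlapping arrays, since its U74A array at 24 h stood at 605.1 and the other two at 141.5 and 116.0. Anxa7 was the 1 that fell (-0.66 ± 0.13, adjusted p = 0.00839, and 0.0507 without replicate 3 of 24 h). Of 33 genes of lysosomes and autophagy 6 rose (18.2%) and 3 fell (9.09%), beside the same 6.61% and 5.58% of all genes. Sqstm1 is among the 3 falls and also among those of the ubiquitin system. Every one of the 6 rises, Man2b1 and Psap among them, was lost without replicate 2 or without replicate 3 of 24 h, and the count was 1 without replicate 2, 2 without replicate 1 and 3 without replicate 3 of 48 h or without either 48 h control. Gabarapl1, an autophagosome protein, fell by 0.69 ± 0.13 (adjusted p = 0.00558), from 3361, 5112 and 5011 to 2819, 2703 and 2664, with no overlap.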

How the data were processed

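RNA of the 10 samples had been hybridised to Affymetrix arrays, 4 of design U74A and 6 of U74Av2. The deposited values are signal intensities computed by the authors with MAS5 on a linear scale, per the submitters' processing notes; its version is not given in the sources used here. The 10043 probe sets shared by both designs were used, less 66 control probe sets. Each array was scaled to a trimmed mean of 500 (2% trimmed at each end), 32 was added and log2 taken. Of the 9977 probe sets, the 30% with the lowest mean signal (2993) were left out, which left 6984. After scaling, 19.9 to 27.8% of the values on an array lay under 32, so the pseudocount understates changes of dim genes, and the number of arrays limits the precision.

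All 10 arrays were fitted with limma 3.58.1 in R 4.3.3, with terms for the 4 groups and for array design (5 residual degrees of freedom) and eBayes with a trend. The comparisons were lactacystin at 48 h minus 24 h, the same in the controls, and the difference of both. An exact permutation test of 3 arrays against 3 cannot go below p = 0.1. The fit was tested on simulated data. Of the probe sets, 8724 had 1 gene symbol, 346 several and 907 none. Symbols were updated with RefSeq (GRCm38.p6), and each of 5541 genes was read from its brightest probe set by mean over arrays. Listed or named genes past the threshold had 23 other probe sets, 0 of them with the opposite sign. Some of these did not pass, those of Atf3, Mafg and Psap among them. Named were the 20 largest rises and falls, up to 4 genes per list with the largest changes, and genes switched on or off; the other genes named were chosen after their values were seen. The comparison, the lists and their members were chosen with earlier results of these data known. Same-numbered lactacystin replicates did not deviate together (after design, r = 0.08, -0.225 and 0.266), so the numbers were not taken as pairs. In the controls each number was on the same design at both times, so pairing could not be told from design. Their r was 0.678 before the design was taken out and -0.285 after. Alternatives were the pseudocount, scaling, filter, design term, arrays fitted, variance model, a replicate block and each array left out.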

Additional observations from a re-analysis of the deposited data

Results flagged for a closer look

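For 34 of the 182 named genes the change from 24 h to 48 h under lactacystin differed from that in the controls. The difference itself was tested (limma, adjusted p under 0.05). Over all probe sets 86 of 6984 passed (1.23%). Genes were named mostly for large changes under lactacystin, which are part of the tested difference, so this choice raises the count. The values below are that difference on the log2 scale, lactacystin minus control. It was negative for 24 genes. Among chaperones it was -2.74 for Hspa1a, -1.36 for Hsph1, -1.09 for Dnajb2 and -0.88 for Hspa5. Among proteasome genes it was -1.41 for Psmd4, -1.39 for Psmb2, -1.30 for Psmb3, -1.29 for Psmc2, -1.24 for Psmd12, -1.15 for Psma1 and -1.13 for Psma7. Genes of ubiquitin handling stood at -1.35 for Sqstm1, -1.28 for Ufd1 and -0.88 for Vcp. Stress and early response genes stood at -2.07 for Ier3, -1.95 for Fosl1, -1.155 for Cebpb and -1.145 for Ddit3. The remaining negative differences were -1.80 for Cyb5r1, -1.59 for Hk2, -1.34 for Slc7a3, -1.30 for Tuba4a, -1.235 for Rars and -0.73 for Eif3d.

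It was positive for 10 genes. The astrocyte markers stood at 2.38 for Aqp4, 2.04 for Gfap and 1.825 for Pla2g7. The others were 2.09 for Glycam1, 1.65 for Plpp3, 1.61 for A2m, 1.38 for Dbi, 1.32 for Pxmp2, 1.075 for Oat and 0.74 for Id4. Their number depended on single control arrays, as given above for all probe sets.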

How the results depend on the processing

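The count of 808 probe sets stayed within 1.5 times with other pseudocounts, scalings, filters, variance models and sets of arrays fitted. It was 138 (57 higher, 81 lower) without the design term, and leaving out 1 array gave 329 to 831. With a replicate block it was 565 (294 higher, 271 lower). In the controls the count was 0 with the block and 0 to 2 leaving out 1 array. The difference of the changes, 86 in the main setting and 60 with the replicate block, was 166 (20 higher, 146 lower) with median scaling, 48 with no filter, 2 without the design term, 12 with U74Av2 arrays alone, 36 with eBayes without trend, and 5 to 186 leaving out 1 array. Median scaling moved the median of all differences from 0.07 to -0.10. With an off limit of 50 the counts switched off and on were 0 and 0, from 1 and 2. The causes were not tested. Of 126 named genes past the threshold, 50 kept the call in every alternative in which they were tested (44 in 22, and 6 in 21, since the stricter filter on dim probe sets removed them), 76 lost it in at least 1, and 0 changed sign; without the design term 76 of the 126 lost it. Dim probe sets near the added 32 are the least precise.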
